A study of Mus musculus with 2 samples.

Results

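Hand1, Hand2, Isl1, Msx1, Msx2, Pitx1 and Mef2c are transcription factor genes best known from mesoderm, heart and limb. They were followed here in nuclear RNA and in the accessible chromatin around them. The members were the 7 genes of those names among 32285 in the deposited gene table, together with the 133 of 229480 accessibility peaks that lie within 50000 bp of their starts. Of these peaks, 9 lay in a member's own promoter window (from 1000 bp before a start to 100 bp after it), 9 in the promoter of another gene, and 115 in neither (distal peaks). The study pooled mouse embryos at embryonic day 7.0, during gastrulation, and made 1 nuclear RNA library and 1 chromatin accessibility library from the same nuclei. There were thus 2 samples, one for each assay, without replicate, treatment or mutant, and no test between conditions was possible. The labels disagreed among themselves: title, age and protocol gave E7.0 embryos, whereas source, tissue, cell type and strain gave small intestine or distal colon, goblet cells and RedMUC298trTg. A list of 8 goblet and intestinal genes summed to between 0.251 and 6.75 CPM (the counts-per-million scale) in every class of nuclei, so the embryo reading was used.

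Hand1 and Hand2 encode related basic helix-loop-helix proteins. Hand1 is known for its part in trophoblast giant cell differentiation and in extraembryonic mesoderm, and Hand2 for heart, limb and pharyngeal development. Isl1 is a LIM-homeodomain factor of second heart field progenitors, Msx1 and Msx2 are homeodomain factors commonly induced by BMP signals, Mef2c is a MADS-box factor of muscle and heart, and Pitx1 is a homeodomain factor of hindlimb and pituitary. Extraembryonic mesoderm forms the allantois and lines the amnion, chorion and yolk sac, and the extraembryonic ectoderm and ectoplacental cone are trophoblast tissues that contribute to the placenta.

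In the deposited gene table (mm10), Hand1 (ENSMUSG00000037335) starts at chr11:57832147-57832818, Isl1 (ENSMUSG00000042258) at chr13:116309422-116309689 and Pitx1 (ENSMUSG00000021506) at chr13:55831425, all on the minus strand. Msx1 (ENSMUSG00000048450) starts at chr5:37824583 and Msx2 (ENSMUSG00000021469) at chr13:53473074, also on the minus strand. Hand2 (ENSMUSG00000038193) starts at chr8:57320983 and Mef2c (ENSMUSG00000005583) between chr13:83504034 and chr13:83575677, both on the plus strand. Hand1 had 30 of the peaks, Pitx1 22, Msx1 and Msx2 21 each, Hand2 and Isl1 14 each and Mef2c 11.

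Nuclei were grouped by their accessibility, with all peaks within 100 kb of the 7 genes left out, and each class was named from RNA markers that include none of the 7. A class is therefore called "X-like", and the members had no part in defining it. Of 15341 barcodes, 12796 nuclei were kept. The comparisons used 1318 embryonic mesoderm-like, 571 extraembryonic mesoderm-like, 369 haemato-endothelial progenitor-like (early blood and vessel), 1430 extraembryonic ectoderm-like, 178 ectoplacental cone and giant cell-like and 1857 epiblast-like nuclei. Epiblast is the embryonic tissue from which mesoderm arises and served as the common reference, so all folds over it share that denominator. Median depth in these 6 classes lay between 10089 and 12803 UMIs per nucleus. A further 3334 nuclei stayed unnamed. RNA levels are CPM of a class's summed UMIs, and accessibility is given as CPM of its summed peak counts, with exact 95% intervals that cover counting error only. A gene is called higher or lower at 2-fold or more, with at least 20 UMIs in the pair of classes.

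RefSeq promoter sequence (GRCm38.p6) was found for 5 of the 7 genes. Hand1 and Pitx1 had no entry. The 250 bases upstream of 4 starts are shown because the promoter measurements below differ between them. No accessible peak overlapped the Hand2 stretch, 1 peak each covered those of Isl1 and Msx1, and the stretch at a downstream Mef2c start lies inside a peak, while the most upstream Mef2c start had none. Each is printed 5′ to 3′ on the gene's strand, and capitals mark matches, on either strand, to the E-box CATCTG, the homeodomain core TAATTG, the Pitx-type core GGATTA, the GATA motif AGATAA, the TCF/LEF motif CTTTGA or the MEF2 motif.
Hand2, chr8:57320733-57320982, plus strand: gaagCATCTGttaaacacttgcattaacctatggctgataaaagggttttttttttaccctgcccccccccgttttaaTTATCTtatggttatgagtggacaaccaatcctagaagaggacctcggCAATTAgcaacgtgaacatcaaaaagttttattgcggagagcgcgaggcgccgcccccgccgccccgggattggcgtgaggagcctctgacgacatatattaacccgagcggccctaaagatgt
Isl1, chr13:116309689-116309938, minus strand: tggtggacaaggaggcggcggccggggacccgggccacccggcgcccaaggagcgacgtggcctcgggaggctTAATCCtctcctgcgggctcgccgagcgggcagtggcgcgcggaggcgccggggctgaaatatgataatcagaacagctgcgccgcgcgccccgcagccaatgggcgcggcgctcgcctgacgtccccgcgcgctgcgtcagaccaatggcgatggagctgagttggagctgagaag
Msx1, chr5:37824586-37824835, minus strand: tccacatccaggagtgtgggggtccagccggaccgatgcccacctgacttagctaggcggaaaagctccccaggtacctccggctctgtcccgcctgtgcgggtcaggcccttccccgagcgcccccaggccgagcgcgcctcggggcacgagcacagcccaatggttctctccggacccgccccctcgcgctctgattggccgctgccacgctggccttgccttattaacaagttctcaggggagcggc
Mef2c, chr13:83523406-83523655, plus strand: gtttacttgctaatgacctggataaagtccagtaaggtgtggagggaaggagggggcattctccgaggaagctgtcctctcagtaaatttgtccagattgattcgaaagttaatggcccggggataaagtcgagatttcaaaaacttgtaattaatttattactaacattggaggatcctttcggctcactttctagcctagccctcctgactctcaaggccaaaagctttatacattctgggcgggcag
The Hand2 stretch held 1 CATCTG, 1 TAATTG and 1 AGATAA, and 49.2% of its bases were G or C. The Isl1 stretch held 1 GGATTA at 71.2% G or C. The Msx1 stretch (68.0% G or C) and the Mef2c stretch (44.8%) held none of the capital-marked motifs. Over 32851 RefSeq promoters of the same length, CATCTG occurred in 14.4%, TAATTG in 7.17%, GGATTA in 6.25%, AGATAA in 9.99%, CTTTGA in 13.8% and the MEF2 motif in 2.92%. The looser CANNTG, which contains CATCTG and was not capitalised, occurred in 66.2%. It was found 2 times in the Hand2 stretch and 1 time each in those of Isl1 and Msx1. A match describes letters only.

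In RNA, 6 of the 7 genes were higher in embryonic mesoderm-like and in extraembryonic mesoderm-like than in epiblast-like nuclei. Hand1, Hand2, Isl1, Msx1, Msx2 and Mef2c made up both counts, and Pitx1 was the exception. All 7 passed the minimum of UMIs in both comparisons. The minimum is on the sum of the pair, for members and for all genes alike. Hand2 (3 UMIs in epiblast-like nuclei), Isl1 (13) and Pitx1 (16) reached it only with the UMIs of the mesoderm class. They are included in the counts and medians given here. Over all genes tested, 7.89% were called higher in embryonic and 8.34% in extraembryonic mesoderm-like nuclei. The members' median log2 fold was 1.71 in the former and 3.79 in the latter, against -0.002 and 0.017 over all genes. Between the mesoderm classes, 5 of 7 members were higher in extraembryonic than in embryonic mesoderm-like nuclei (5.05% of all genes), and none was at least 2-fold lower.

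**Figure D1:**
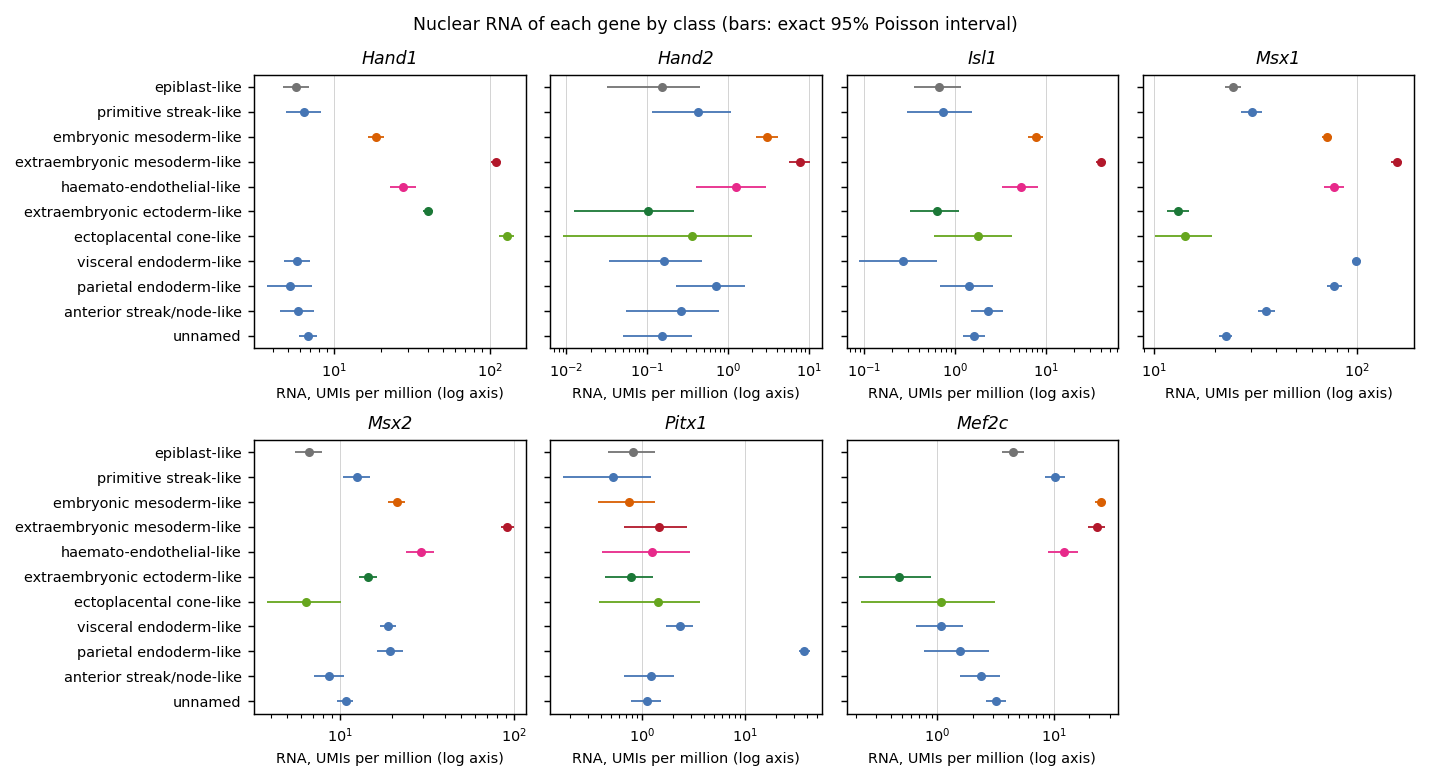
Nuclear RNA of the 7 genes in each class, in CPM on a log axis that differs between panels. Points are class sums and bars exact 95% Poisson intervals. The extraembryonic mesoderm-like class is the highest for Hand2, Isl1, Msx1 and Msx2, the ectoplacental cone-like class is at 129 CPM for Hand1, and Pitx1 stands apart in parietal endoderm-like nuclei at 38.1 CPM.

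Hand1 was high in an extraembryonic mesoderm class and in trophoblast. It reached 129 CPM (interval 116 to 143, 362 UMIs) in ectoplacental cone-like nuclei, 111 CPM (103 to 119, 684 UMIs) in extraembryonic mesoderm-like nuclei, 40.1 CPM (37.3 to 43.0) in extraembryonic ectoderm-like nuclei, 27.9 CPM (22.9 to 33.6) in haemato-endothelial-like nuclei and 18.6 CPM (16.4 to 20.9) in embryonic mesoderm-like nuclei. The remaining named classes lay between 5.21 and 6.42 CPM, with 5.66 CPM in epiblast-like nuclei. The intervals of the leading pair met between 116 and 119 CPM, while each later class in that order lay clear of the one before it.

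The ectoplacental cone value rested on few nuclei. A single nucleus held 76 of its 362 UMIs, and without that nucleus the class stood at 103 CPM (91.8 to 116). Prl3d1, a placental lactogen gene of giant cells, had UMIs in 19 of the 178 nuclei. Hand1 was at 521 CPM (446 to 606, 169 UMIs) in those 19 and at 77.7 CPM (67.1 to 89.4, 193 UMIs) in the other 159. The nucleus with 76 Hand1 UMIs was among the 19, and the remaining 18 were at 333 CPM (269 to 408). Hand1 was detected in 15 of the 19 and 58 of the 159, at median depths of 15810 and 12228 UMIs. The class also held Cdh5, an endothelial cadherin gene, in 30 nuclei (179 UMIs), and 134 UMIs of the globin gene Hbb-bs in 1 nucleus. Tpbpa, a marker of ectoplacental cone and spongiotrophoblast, had 1 UMI there, and Prl8a2, a decidual prolactin gene, had 0. Ascl2, like Tpbpa a naming marker of this class, had 591 UMIs in 135 of the 178 nuclei. Its level was 210 CPM, against 19.9 CPM in extraembryonic ectoderm-like nuclei. Hand1 was at 80.8 CPM (69.5 to 93.4) in the 135 nuclei with an Ascl2 UMI and at 329 CPM (282.5 to 380.8) in the 43 without. Their part in the Hand1 level was not tested.

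Hand2 was sparse, with 124 UMIs in all kept nuclei, of which 48 lay in extraembryonic and 45 in embryonic mesoderm-like nuclei. Its level was 7.77 CPM (5.73 to 10.3) in the former and 3.08 CPM (2.25 to 4.13) in the latter. In epiblast-like nuclei it had 3 UMIs (0.154 CPM, 0.0318 to 0.451). The fold over epiblast-like nuclei was 50.3 (16.2 to 253) in extraembryonic and 19.97 (6.41 to 100.4) in embryonic mesoderm-like nuclei, and the width of these intervals comes from the 3 UMIs. Hand2 was detected in 5.78% of extraembryonic mesoderm-like nuclei against 0.140% of extraembryonic ectoderm-like and 0.214% of visceral endoderm-like nuclei. Hand2os1, the RNA gene beside Hand2, had 72 UMIs (11.7 CPM) in extraembryonic and 117 UMIs (8.02 CPM) in embryonic mesoderm-like nuclei, and 4 UMIs in epiblast-like nuclei. Whether the counting used strand is not given in the sources used here, so reads of these neighbours may not be separable.

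Isl1 was at 40.0 CPM (35.1 to 45.3, 247 UMIs) in extraembryonic mesoderm-like nuclei and 7.67 CPM (6.32 to 9.23, 112 UMIs) in embryonic mesoderm-like nuclei. It was at 5.28 CPM (3.27 to 8.06, 21 UMIs) in haemato-endothelial-like nuclei, whose interval overlaps that of embryonic mesoderm, and at 0.669 CPM (13 UMIs) in epiblast-like nuclei. The fold of extraembryonic mesoderm over epiblast was 59.7 (34.3 to 114), and that over embryonic mesoderm 5.21 (4.15 to 6.57). The latter was 2.46 at resolution 2, 3.52 with classes taken from RNA clusters and 2.21 and 2.24 with seeds 1 and 2. Extraembryonic ectoderm-like nuclei were near the epiblast level, at 0.622 CPM. Ectoplacental cone-like nuclei had 5 UMIs (1.78 CPM), too few for a fold.

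Msx1 and Msx2 were both highest in extraembryonic mesoderm-like nuclei. Msx1 was at 157 CPM (147 to 167) there, at 77.4 CPM (69.0 to 86.5) in haemato-endothelial-like and 71.3 CPM (67.1 to 75.8) in embryonic mesoderm-like nuclei, and at 24.6 CPM (22.5 to 26.9) in epiblast-like nuclei. It was also at 99.6 CPM (95.1 to 104, 1852 UMIs) in visceral endoderm-like and 77.4 CPM (71.0 to 84.1) in parietal endoderm-like nuclei, so its RNA was not limited to mesoderm classes. The visceral endoderm-like class joined 2 clusters that differed, one of 932 nuclei at 124 CPM (117 to 130) and one of 467 nuclei at 51.96 CPM (46.5 to 57.9). In trophoblast it was at 13.2 CPM (extraembryonic ectoderm-like) and 14.2 CPM (ectoplacental cone-like), with folds over epiblast of 0.537 (0.460 to 0.627) and 0.579 (0.408 to 0.7999), short of the 2-fold line. Msx2 was at 91.8 CPM (84.4 to 99.6) in extraembryonic mesoderm-like, 29.1 CPM (24.1 to 35.0) in haemato-endothelial-like and 21.2 CPM (18.9 to 23.7) in embryonic mesoderm-like nuclei. Its epiblast-like level was 6.64 CPM. It was at 19.6 CPM in parietal and 18.9 CPM in visceral endoderm-like nuclei, 2.95-fold (2.30 to 3.77) and 2.84-fold (2.32 to 3.51) over epiblast. Unlike Msx1, Msx2 was above epiblast in extraembryonic ectoderm-like nuclei, at 14.5 CPM and a fold of 2.18 (1.76 to 2.71). That fold lies close to the line, its interval spans it, and it was 1.68 with doublet calls kept and 1.80 with seed 1.

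Mef2c was at similar levels in embryonic and extraembryonic mesoderm-like nuclei, at 24.9 CPM (22.4 to 27.6) and 22.98 CPM (19.4 to 27.1). The fold of the second over the first was 0.921 (0.754 to 1.12), but it was 1.46 at resolution 2 and 1.35 and 1.38 with seeds 1 and 2. It was at 12.1 CPM (8.89 to 16.0) in haemato-endothelial-like, 10.2 CPM (8.27 to 12.4) in primitive streak-like and 4.48 CPM (3.59 to 5.52) in epiblast-like nuclei. In extraembryonic ectoderm-like nuclei 9 UMIs gave 0.467 CPM, a fold of 0.104 (0.0461 to 0.207) over epiblast, and in ectoplacental cone-like nuclei 3 UMIs gave 1.07 CPM and a fold of 0.239 (0.0483 to 0.720). The ectoplacental cone pair fell under the minimum when 2000 UMIs per nucleus were asked for, so that call was lost there.

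Pitx1 did not follow the mesoderm grouping under which these genes were listed. It had 271 of its 431 UMIs in parietal endoderm-like nuclei, at 38.1 CPM (33.7 to 42.9), 46.3-fold (28.0 to 82.2) above epiblast-like nuclei at 0.824 CPM. It was at 0.754 CPM (11 UMIs) in embryonic and 1.46 CPM (9 UMIs) in extraembryonic mesoderm-like nuclei, and its intervals overlapped the epiblast interval in all 5 mesoderm and trophoblast classes. The parietal endoderm-like class had 4565 CPM of its own 8 markers summed against 1323 CPM in visceral endoderm-like nuclei, and also 8873 CPM of 10 visceral endoderm markers against 16030 CPM.

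In haemato-endothelial-like nuclei, 5 of the 6 members that passed the minimum were higher than in epiblast-like nuclei (9.47% of all genes): Hand1, Isl1, Msx1, Msx2 and Mef2c. Hand2 had 5 and 3 UMIs in the pair and was not called. Isl1 (13 UMIs in epiblast-like nuclei) reached the minimum only with its 21 UMIs in the haemato-endothelial class, and Pitx1 (16) only with its 5. Against embryonic mesoderm-like nuclei 2 of 6 were lower (8.53% of all genes). These were Mef2c at 0.483-fold (0.350 to 0.655) and Hand2 at 0.407-fold on 5 against 45 UMIs, with an interval of 0.126 to 1.02 that includes no difference. With doublet calls kept neither was called (0.502 and 0.760), and Mef2c was at 0.530 when averaged over nuclei. Msx1 at 1.09-fold (0.952 to 1.23) and Isl1 at 0.687-fold (0.410 to 1.10) could not be told from embryonic mesoderm at this depth.

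In trophoblast, fewer members were above epiblast than in the mesoderm classes, though not a smaller share than among all genes. In extraembryonic ectoderm-like nuclei 2 of 6 were higher (Hand1 and Msx2, 11.4% of all genes) and 1 was lower (Mef2c, 20.8%). In ectoplacental cone-like nuclei 1 of 5 was higher (Hand1, 11.8%) and 1 was lower (Mef2c, 23.1%). Hand1 was 7.08-fold (5.79 to 8.72) over epiblast in the first and 22.8-fold (18.3 to 28.4) in the second. Between the trophoblast classes 1 of the 3 members that passed, Hand1, was higher in ectoplacental cone-like nuclei, at 3.22-fold (2.83 to 3.65), where 6.58% of all genes were higher. Without the 19 nuclei that held a Prl3d1 UMI the fold was 1.94 (1.65 to 2.27), under the 2-fold line. Msx2 had 18 UMIs in ectoplacental cone-like nuclei, 0.443-fold (0.259 to 0.713) of the extraembryonic ectoderm level.

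The extraembryonic mesoderm-like class joined nuclei that a finer partition kept apart. At resolution 2 its nuclei fell mainly into a group of 275 that kept the name and one of 280 without a name, whose leading list was that of primordial germ cells. Hand2 was at 15.7 CPM (45 UMIs) in the named group and 0.943 CPM (3 UMIs) in the unnamed one, a fold of 16.6 (5.34 to 83.7). Mef2c went the same way, at 37.0 against 10.1 CPM and 3.68-fold (2.45 to 5.64). Isl1 went the other way, at 19.2 CPM (55 UMIs) in the named group and 58.8 CPM (187 UMIs) in the unnamed group, 3.07-fold (2.26 to 4.22) higher in the latter. Hand1 (138 and 89.0 CPM), Msx1 (178 and 136 CPM) and Msx2 (84.7 and 98.7 CPM) were in both groups and differed by less than 2-fold. Extraembryonic mesoderm markers summed to 2772 CPM in the named group and 1136 CPM in the unnamed one, and primordial germ cell markers to 28.2 and 184 CPM. Primitive streak markers were at 359 and 898 CPM, embryonic mesoderm markers at 359 and 669 CPM and haemato-endothelial markers at 487 and 155 CPM. Their part in the split of Hand2, Mef2c and Isl1 was not tested. Median depth was 10055 and 10715.5 UMIs. Over all settings tried, the fold of the class over epiblast ranged from 21.5 to 69.2 for Isl1, 22.5 to 88.0 for Hand2 and 15.6 to 27.3 for Hand1.

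**Figure D2:**
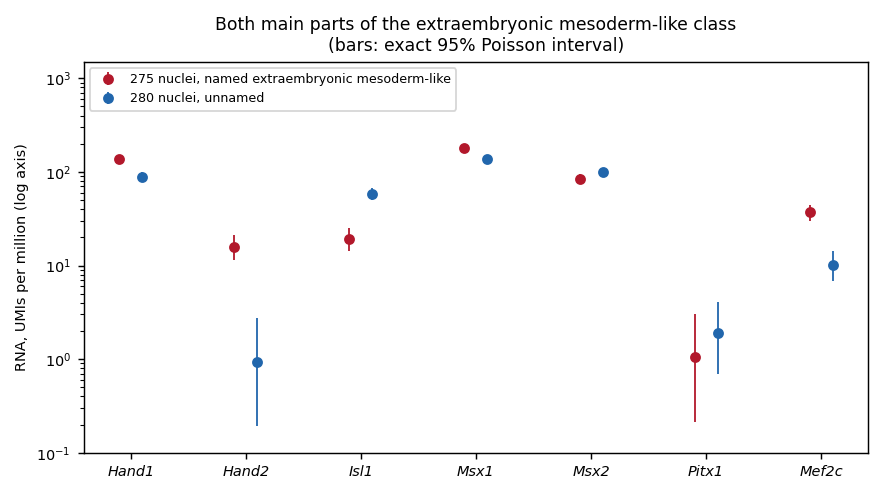
RNA of the 7 genes in both main parts of the extraembryonic mesoderm-like class, in CPM on a log axis, with exact 95% Poisson intervals. Hand2 and Mef2c are higher in the 275 nuclei that kept the name and Isl1 in the 280 unnamed nuclei.

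Embryonic mesoderm-like nuclei showed a similar division for Hand2. In the largest parts, of 541 and 480 nuclei, it was at 6.13 CPM (37 UMIs) and 0.545 CPM (3 UMIs), a fold of 11.3 (3.56 to 57.1). Mef2c was at 33.3 and 20.2 CPM, 1.65-fold (1.30 to 2.10), and Msx1 at 70.4 and 71.0 CPM, 0.992-fold (0.863 to 1.14). The group with more Hand2 had 1244 CPM of extraembryonic mesoderm markers against 463 CPM, and 1076 against 1375 CPM of embryonic mesoderm markers. Anterior streak and node markers were at 1341 and 952.5 CPM, haemato-endothelial markers at 277.5 and 130.3 CPM, primitive streak markers at 632.6 and 1005 CPM and epiblast markers at 617.9 and 888 CPM. Their part in the Hand2 division was not tested.

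Detection of several members in one nucleus was most frequent in the extraembryonic mesoderm-like class. After each nucleus was thinned to 5000 UMIs, 2 or more of the 7 genes were detected in 45.2% of 522 extraembryonic mesoderm-like nuclei. The share was 13.0% of embryonic mesoderm-like, 13.1% of haemato-endothelial-like, 2.91% of extraembryonic ectoderm-like and 1.76% of epiblast-like nuclei. Hand1 and Msx1 were found together in 100 of the 522, where the product of their shares gives 92.4 nuclei. The same values were 85 and 66.2 for Hand1 with Msx2, 84 and 79.1 for Msx1 with Msx2, and 32 and 35.9 for Isl1 with Msx1. In 1214 embryonic mesoderm-like nuclei the counts lay above the product for the same pairs, with 37 and 25.8 for Hand1 with Msx1, 20 and 9.52 for Hand1 with Msx2, 49 and 33.7 for Msx1 with Msx2, and 20 and 12.9 for Isl1 with Msx1. Pairs with Mef2c ran both ways. In extraembryonic mesoderm-like nuclei they were 2 and 6.28 with Isl1, 14 and 16.2 with Hand1, 11 and 13.8 with Msx2, and 21 and 19.3 with Msx1. In embryonic mesoderm-like nuclei they were 4 and 4.49, 8 and 8.98, 13 and 11.75, and 39 and 31.8 in that order. Free RNA can give a UMI in a nucleus that does not express the gene: Hand1 had one in 5.71% of epiblast-like nuclei before thinning. Its part in these shares and pairs was not tested.

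Where the RNA of a gene with a promoter peak was higher than in epiblast, its summed promoter accessibility differed less, by a margin that varied. None of the 5 genes with a promoter peak was at least 2-fold more accessible in any of the 5 classes than in epiblast-like nuclei, where 3.25% (embryonic mesoderm), 3.35% (extraembryonic mesoderm), 4.03% (haemato-endothelial), 4.35% (extraembryonic ectoderm) and 6.72% (ectoplacental cone) of all genes with promoter peaks were. At shares this low, finding none among 5 does not set these genes apart from all genes. Whether other genes with higher RNA had the same margin was not tested. Summed over its 3 promoter peaks, Hand1 was at 54.4 CPM in extraembryonic mesoderm-like nuclei, 36.7 in embryonic mesoderm-like, 38.9 in extraembryonic ectoderm-like, 41.8 in ectoplacental cone-like and 35.7 in epiblast-like nuclei. Its fold over epiblast was thus 1.52 (1.33 to 1.74) in extraembryonic mesoderm and 1.17 (0.923 to 1.47) in ectoplacental cone, where its RNA folds were 19.6 and 22.8. The Isl1 promoter was at 32.7 and 30.9 CPM in extraembryonic mesoderm-like and epiblast-like nuclei, a fold of 1.06 (0.892 to 1.25) beside an RNA fold of 59.7. The Msx2 promoter differed by 1.24-fold (1.04 to 1.47) between the same classes. For Msx1 the margin was smaller. Its promoter fold over epiblast was 1.755 (1.52 to 2.02) in haemato-endothelial-like nuclei, beside an RNA fold of 3.145. In extraembryonic mesoderm-like nuclei it was 1.495 (1.32 to 1.69), beside an RNA fold of 6.37.

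Single promoter peaks moved somewhat more. At Hand1, the peak over the start (chr11:57831700-57832428) was 1.94-fold (1.63 to 2.31) more accessible in extraembryonic mesoderm-like nuclei, while a second (chr11:57833588-57834330) was 1.98-fold (1.21 to 3.11) more accessible in ectoplacental cone-like nuclei. At Msx1, the peak upstream of the start (chr5:37825517-37826366) stood at 33.1 CPM in haemato-endothelial-like, 23.03 in extraembryonic mesoderm-like, 18.5 in embryonic mesoderm-like, 10.3 in epiblast-like and 1.88 in extraembryonic ectoderm-like nuclei. Its haemato-endothelial fold over epiblast was 3.22 (2.54 to 4.07), close to the Msx1 RNA fold there of 3.145 (2.72 to 3.64). The peak at the start itself (chr5:37824157-37824981) had a haemato-endothelial fold of 1.30 (1.07 to 1.56). In endoderm neither peak was above epiblast. The upstream peak was at 0.899-fold (0.704 to 1.14) in visceral endoderm-like nuclei, beside an Msx1 RNA fold of 4.05. In parietal endoderm-like nuclei it was at 0.763-fold (0.535 to 1.09), beside an RNA fold of 3.145. The start peak was at 0.9925-fold and 0.7595-fold in these classes. The Pitx1 promoter peak at the start (chr13:55830884-55831826) was at 26.0 CPM in parietal endoderm-like and 25.9 in epiblast-like nuclei, a fold of 1.003 (0.821 to 1.22) beside the RNA fold of 46.3. The other Pitx1 promoter peak (chr13:55832415-55833074) was 1.66-fold (1.09 to 2.50) more accessible there, and distal peaks ran both ways, from 0.176-fold (chr13:55827422-55827918) to 3.54-fold (chr13:55815795-55816556).

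In trophoblast, promoters were lower at 2 of 5 genes in each class, Msx1 and Pitx1, where 19.7% (extraembryonic ectoderm) and 21.2% (ectoplacental cone) of all genes were lower. Msx1 was at 0.466-fold (0.403 to 0.538) and 0.376-fold (0.256 to 0.535), and Pitx1 at 0.402-fold (0.337 to 0.478) and 0.361-fold (0.225 to 0.551). Isl1 was at 0.507-fold (0.428 to 0.597) and 0.550-fold (0.373 to 0.785), just short of the line. In extraembryonic ectoderm, Msx1 was at 0.517-fold with doublet calls kept, which left 1 gene lower, and 4 genes were lower with promoter windows of 2000 bp.

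**Figure D3:**
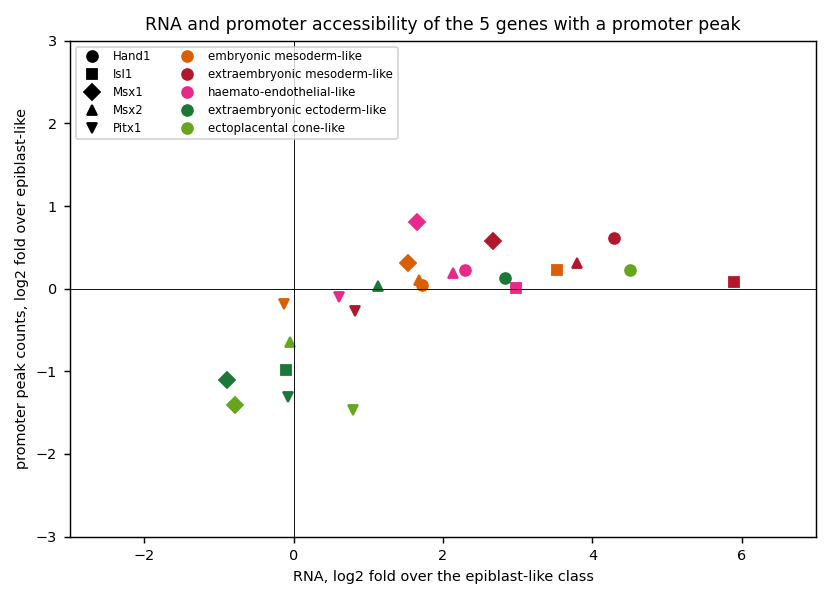
RNA (x axis) and summed promoter peak counts (y axis) as log2 folds over epiblast-like nuclei, 1 point per gene and class for the 5 genes with a promoter peak, except Isl1 in ectoplacental cone-like nuclei, which had under 20 UMIs in the pair. RNA folds reach 59.7 (Isl1), while the promoter folds lie between 0.361 and 1.76.

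Hand2 and Mef2c had no peak in a promoter window. For Mef2c the windows were set at the ends of the interval of starts in the deposited gene table, and RefSeq starts inside that interval had none, so peaks over them were counted as distal. The peak nearest the Hand2 start (chr8:57321912-57322534) was at 12.5 CPM in epiblast-like, 12.2 in embryonic mesoderm-like, 7.40 in extraembryonic mesoderm-like and 3.75 in extraembryonic ectoderm-like nuclei, and so was not higher where Hand2 RNA was. The peak that covers the downstream Mef2c start printed above (chr13:83523365-83524211) was at 10.4 in embryonic mesoderm-like, 10.1 in haemato-endothelial-like, 7.62 in epiblast-like, 5.92 in extraembryonic mesoderm-like and 1.37 in extraembryonic ectoderm-like nuclei.

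Among distal peaks, trophoblast differed most from epiblast. In extraembryonic ectoderm-like nuclei 71 of 113 measured peaks (62.8%) were lower, against 36.9% of all distal peaks, and in ectoplacental cone-like nuclei 58 of 108 (53.7%) against 29.7%. The peaks around Isl1 were lower in 10 of 12, around Mef2c in 10 of 10, around Msx1 in 16 of 19 and around Hand2 in 9 of 10 cases in extraembryonic ectoderm. For Pitx1 it was 12 of 16, for Hand1 8 of 26 and for Msx2 6 of 20. In ectoplacental cone the lower peaks were 9 of 26 for Hand1, 6 of 18 for Msx2, 7 of 15 for Pitx1, 5 of 10 for Mef2c, 14 of 19 for Msx1, 8 of 10 for Isl1 and 9 of 10 for Hand2. All distal peaks together were shifted, with a median log2 fold of -0.52 in extraembryonic ectoderm-like and -0.30 in ectoplacental cone-like nuclei, and the members' medians were -1.67 and -1.30. Higher peaks numbered 7 in each trophoblast class, 6.19% and 6.48% of those measured, against 14.5% and 15% of all distal peaks.

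In the mesoderm classes the shares lay nearer to the background in percentage points. A smaller share of member peaks than of all distal peaks was lower in each of them. Of 111 measured peaks 20 (18.0%) were higher and 7 (6.31%) lower in embryonic mesoderm-like than in epiblast-like nuclei, where 12.8% and 16.3% of all distal peaks were. In extraembryonic mesoderm-like nuclei 23 of 110 (20.9%) were higher and 15 (13.6%) lower, against 13.6% and 20.6%. In haemato-endothelial-like nuclei 19 of 108 (17.6%) were higher and 18 (16.7%) lower, against 14.3% and 26.6%. The median log2 fold of all distal peaks was -0.16, -0.18 and -0.29 in these 3 classes. Between extraembryonic and embryonic mesoderm-like nuclei 13 of 109 (11.9%) were higher in the former, against 9.48%. With estimated fragments in place of counts the number higher was 7. By counts, 9 of the 109 (8.26%) were lower in the former, for which the share of all distal peaks is not given here.

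Hand1 had a distal peak 31987 bp upstream (chr11:57864347-57865263) that stood at 31.9 CPM in extraembryonic mesoderm-like, 24.0 in embryonic mesoderm-like, 17.6 in ectoplacental cone-like and 17.3 in haemato-endothelial-like nuclei, but at 2.14 in epiblast-like and 2.47 in extraembryonic ectoderm-like nuclei. Its fold over epiblast in extraembryonic mesoderm was 14.9 (10.6 to 21.4). It was thus low in the extraembryonic ectoderm, a class with Hand1 RNA at 40.1 CPM. Across the 19 clusters its counts had a correlation of 0.722 with Hand1 RNA. As the leading peak of the gene, it was picked for its fold over epiblast in classes where Hand1 RNA was also higher. The correlation is therefore no separate evidence of a link. Over all 26 distal Hand1 peaks the median correlation was 0.028. Other Hand1 peaks chosen after their values were seen divided the classes differently. One 33839 bp upstream (chr11:57866196-57867119) was at 29.6 in extraembryonic mesoderm-like and 26.0 in haemato-endothelial-like, yet at 1.02 in extraembryonic ectoderm-like and 2.51 in ectoplacental cone-like nuclei. One 14982 bp upstream (chr11:57847385-57848215) was at 8.97 in extraembryonic mesoderm-like, 5.30 in haemato-endothelial-like and 1.88 or less in the other compared classes. One 36232 bp upstream (chr11:57868619-57869481) was at 12.2 in extraembryonic ectoderm-like and 11.3 in extraembryonic mesoderm-like nuclei and at 4.996 in epiblast-like nuclei. Within the extraembryonic mesoderm-like class it had 92 counts (15.9 CPM) in the unnamed part and 30 (6.12 CPM) in the named one.

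Isl1 led with a peak 49611 bp downstream of its start (chr13:116259356-116260267), at 11.5 CPM in haemato-endothelial-like, 8.33 in extraembryonic mesoderm-like, 2.19 in embryonic mesoderm-like and 0.668 in epiblast-like nuclei. Its haemato-endothelial fold was 17.3 (9.12 to 34.6), although Isl1 RNA was higher in extraembryonic mesoderm. A peak 32787 bp upstream (chr13:116342023-116342929), named after its values were seen, was nearly equal in embryonic (6.44) and extraembryonic (6.11) mesoderm-like nuclei and at 0.428 in epiblast-like nuclei, a fold of 15.1 (7.58 to 34.1) in embryonic mesoderm.

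Msx2 had peaks that were high in extraembryonic ectoderm. The leading one, 38601 bp upstream (chr13:53511258-53512092), had 149 counts (6.35 CPM) there and 2 counts in epiblast-like nuclei, a fold of 119 with an interval of 20.7 to 4756 that reflects those 2 counts. It was at 1.67 in ectoplacental cone-like and 1.30 in extraembryonic mesoderm-like nuclei. A neighbour 37492 bp upstream (chr13:53510057-53511075) had 113 counts in extraembryonic ectoderm-like and 8 in epiblast-like nuclei. Another, 8902 bp upstream (chr13:53481536-53482416), was at 7.76 in extraembryonic ectoderm-like, 6.04 in parietal endoderm-like, 5.25 in visceral endoderm-like and 4.35 in extraembryonic mesoderm-like nuclei and at 0.561 in epiblast-like nuclei. The peak 3027 bp upstream (chr13:53475649-53476554) was at 79.9 in extraembryonic mesoderm-like, 67.9 in embryonic mesoderm-like, 50.2 in visceral endoderm-like, 46.3 in haemato-endothelial-like, 41.9 in parietal endoderm-like and 35.0 in epiblast-like nuclei. These 3 were also named after their values were seen.

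**Figure D4:**
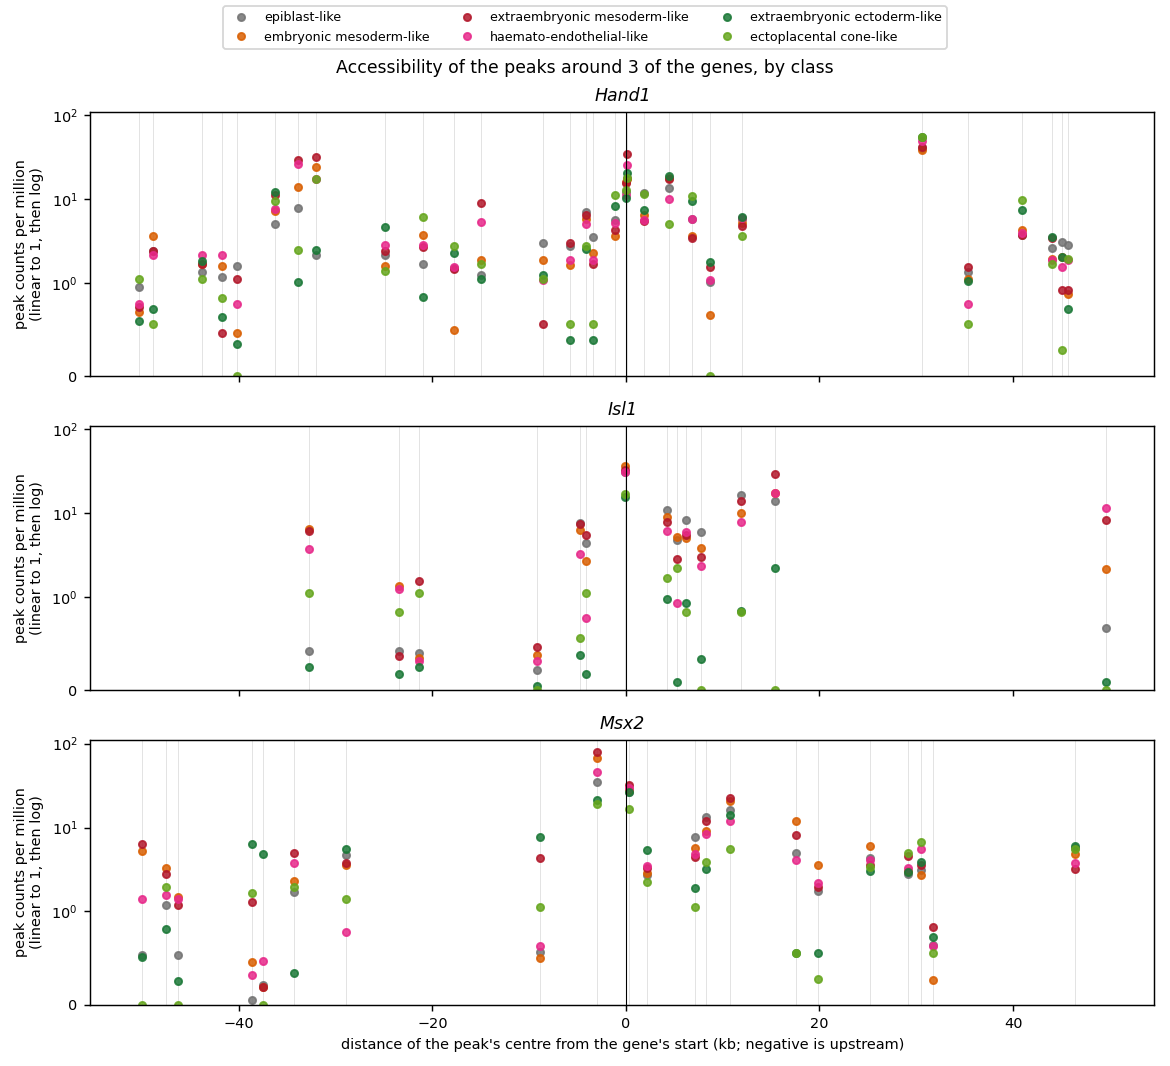
Accessibility in CPM (linear to 1, then log) of every peak within 50000 bp of Hand1, Isl1 and Msx2, by distance from the start in kb, with colours for 6 classes. The Hand1 peak at -31987 bp spans 2.14 to 31.9, and single Msx2 peaks are high in extraembryonic ectoderm-like nuclei.

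The leading distal peaks of the other genes differed less. For Msx1 it lay 31704 bp upstream (chr5:37855832-37856743) with a haemato-endothelial fold of 4.26 (2.41 to 7.43), for Mef2c 8298 bp upstream of a start (chr13:83566986-83567773) with an embryonic mesoderm fold of 5.69 (3.14 to 11.02), for Pitx1 20647 bp upstream (chr13:55851620-55852524) with an embryonic mesoderm fold of 4.05 (2.20 to 7.86), and for Hand2 6569 bp upstream (chr8:57313974-57314854) with an embryonic mesoderm fold of 2.05 (1.65 to 2.55). The Mef2c peak was at 3.95 in embryonic mesoderm-like, 3.42 in extraembryonic mesoderm-like and 0.171 in extraembryonic ectoderm-like nuclei. In ectoplacental cone-like nuclei, where Mef2c RNA was low, it was at 1.67. Within the extraembryonic mesoderm-like class it had 31 counts in the part with more Mef2c RNA and 6 in the other. Another Mef2c peak (chr13:83571796-83572695) went the other way, with 4 and 20 counts.

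Across the 19 clusters, the correlation between a distal peak and its gene's RNA was at least 0.5 for 19 of 105 pairs of the 6 genes with at least 200 UMIs (18.1%), close to the 18.4% found over 211116 pairs of all such genes. Mef2c had 7 of its 11 peaks above that value, Hand1 4 of 26, Msx1 3 of 19, Isl1 and Msx2 2 each, and Pitx1 1. These correlations describe clusters of a single pair of libraries and share their depth.

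Genes whose RNA pattern over the 19 clusters was most like a member's were listed by Pearson's r of log2(CPM + 1) among 14278 genes. For Hand1 these were Phlda2, an imprinted placental gene, at 0.943, Plet1os at 0.888 and Gata3, a trophoblast GATA factor, at 0.874. For Hand2 they were Hand2os1 at 0.915, Tnc, which encodes the matrix protein tenascin C, at 0.907 and Hoxb3os at 0.892, all on few UMIs. For Isl1 they were Siah2, Tnc and Mocs1 (0.897 to 0.853), for Msx1 Nkd1, Glis1 and Tbx3os1 (0.900 to 0.893), and for Msx2 Dlg5, Tbx2 and Ppic (0.885 to 0.868). Pitx1 was most like Slc9a3 (0.931), Igfbp1 (0.921) and Aqp8 (0.874), and Mef2c like Ccnd2, the cyclin D2 gene (0.930), Cdh8 and Gas1 (both 0.925). Slc9a3, Igfbp1 and Aqp8 are also among the 10 leading genes of the parietal endoderm-like cluster.

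BMP signals are known to induce Msx and Hand genes. A list of 10 genes held BMP ligands together with targets and inhibitors of the pathway, which are not themselves signals. Of these 10, 7 were higher in extraembryonic mesoderm-like than epiblast-like nuclei and none was lower (8.34% of all genes were higher), with a median log2 fold of 1.66. In embryonic mesoderm-like nuclei 4 were higher (7.89% of all genes), with a median of 0.61. Bmp4 was at 109 CPM in extraembryonic mesoderm-like, 8.84 CPM in embryonic mesoderm-like, 7.72 CPM in epiblast-like and 169 CPM in extraembryonic ectoderm-like nuclei, and it is also a naming marker of extraembryonic mesoderm. Bmp5 was at 72.5, 16.4 and 0.618 CPM in the first 3 of these. Smad6, an inhibitor of BMP signalling that is induced by it, was 11.7-fold (10.5 to 13.1) over epiblast in extraembryonic and 4.11-fold (3.67 to 4.61) in embryonic mesoderm. Id1, a direct BMP target, was 3.21-fold and 1.83-fold. In extraembryonic ectoderm-like nuclei 4 of 9 were higher (11.4% of all genes) and 1, Id3, was lower (20.8%). In ectoplacental cone-like nuclei 0 of 9 were higher (11.8%) and 3 lower (23.1%). In haemato-endothelial-like nuclei 6 of 10 were higher (9.47%), with a median log2 fold of 1.65.

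Of 12 cardiac and lateral mesoderm genes, 8 passed the minimum and all 8 were higher in extraembryonic mesoderm-like nuclei (8.34% of all genes), with a median log2 fold of 3.28. In embryonic mesoderm-like nuclei 7 of 8 were higher (7.89%), with a median of 3.22. Of the 12, 3 (Foxf1, Mesp1 and Tbx20) also name classes and are no separate evidence. Gata4 and Gata6, cardiac and endodermal GATA factors, were 17.3-fold and 13.6-fold over epiblast in extraembryonic and 21.8-fold and 24.3-fold in embryonic mesoderm. Myocd, a coactivator of muscle genes, was 4.48-fold and 4.11-fold.

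Of 13 relatives and partners of the members, 10 passed the minimum and 2 were higher in extraembryonic mesoderm-like than epiblast-like nuclei (8.34% of all genes), with none lower. These were Twist1 and Twist2, basic helix-loop-helix factors of mesoderm, at 2.78-fold (1.83 to 4.22) and 3.48-fold (1.78 to 6.83). In embryonic mesoderm-like nuclei 1 of 10 was higher (7.89%), Twist1 at 3.92-fold (2.84 to 5.47). Mef2b was at 0.457-fold (0.3001 to 0.681), and the share of all genes lower in this comparison is not given here. The median log2 folds were 0.003 and 0.233. In extraembryonic ectoderm-like nuclei 2 of 10 were higher (11.4%), Mef2d and Lmo4, and 5 were lower (20.8%), Mef2b, Twist2, Tcf3, Tcf4 and Tcf12.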

How the data were processed

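The authors deposited whole-number counts per barcode, UMI counts for genes and counts for accessibility peaks, in 1 matrix. Cell Ranger ARC 2.0.0 and mm10 are named per the submitters' processing notes. Of nonzero peak values 86.4% were even, so intervals on accessibility used estimated fragments (counts divided by 2, rounded up). Over the 15341 barcodes shared by both assays there were 182201512 UMIs and 273131304 peak counts. Aligner settings, peak caller and strand rule are not given in the sources used here.

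Nuclei were kept at 1000 UMIs, 500 genes and 1000 peak counts or more, with mitochondrial genes taking no more than 20% of UMIs. Scrublet in scanpy 1.11.5 called 1154 doublets (7.52%), which were removed. Peaks found in at least 50 nuclei, except 226 within 100 kb of the members, were weighted by TF-IDF, reduced to 30 singular vectors, of which the first was left out, and partitioned with leidenalg 0.10.2 (15 neighbours, resolution 1). Clusters were named from RNA marker lists by a scoring rule, with no member in any list. Ratios have exact conditional binomial intervals, levels exact Poisson intervals. A gene at 0 in 1 class was set to 3 counts. Ratios and intervals were tested on simulated RNA counts, drawn as independent Poisson counts from class means. That model is the one the intervals assume, so it cannot show how they hold where nuclei vary more. Accessibility counts were not simulated. The text names the 7 genes, their promoter peaks, the distal peak with the largest fold on at least 50 estimated fragments per gene, 3 alike genes per member and examples from 3 lists. Of the list of relatives and partners, 1 gene is not reported here. The members and lists were chosen with earlier results of these data known.

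Alternatives kept doublets, asked for 2000 UMIs and peak counts, changed the resolution (0.5 and 2), took classes from RNA clusters, averaged over nuclei, dropped the minimum, widened the promoter to 2000 bp, used estimated fragments or narrowed distal peaks to 20000 bp. Seeds 1 and 2 were added after seeing the data.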

Additional observations from a re-analysis of the deposited data

How the results depend on the processing

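Of 87 member folds, 35 were at least 2-fold and none of these crossed 1 under the settings tried, while 23 smaller ones did. The RNA counts of 6 of 7 members higher than epiblast in both mesoderm classes stayed within 1.5 times of that value. With doublet calls kept, the extraembryonic ectoderm count over epiblast was 1 in RNA higher (2 in the report), 1 in promoters lower (2) and 11 in distal peaks higher (7), the haemato-endothelial count below embryonic mesoderm was 0 (2), and the ectoplacental cone count above extraembryonic ectoderm was 2 (1). At 2000 UMIs and peak counts, 0 members were lower in ectoplacental cone than in epiblast (1). With seed 1, 1 member was higher in extraembryonic ectoderm (2) and 4 distal peaks were lower in embryonic mesoderm (7). Averaging over nuclei gave 1 member below embryonic mesoderm in the haemato-endothelial class (2) and 12 lower distal peaks in embryonic mesoderm (7). A window of 2000 bp gave 4 lower promoters in extraembryonic ectoderm (2). Estimated fragments gave 7 distal peaks higher in extraembryonic than embryonic mesoderm (13). Within 20000 bp, where fewer peaks are listed, 8 were higher and 3 lower in embryonic mesoderm, 11 higher and 7 lower in extraembryonic mesoderm, 9 higher in haemato-endothelial, 2 in extraembryonic ectoderm and 1 in ectoplacental cone nuclei, and 7 higher in extraembryonic than embryonic mesoderm. Apart from the shorter list of peaks within 20000 bp, the cause was not tested. The extraembryonic mesoderm-like class held 360 nuclei with seed 1 and 365 with seed 2. It merged with embryonic mesoderm at resolution 0.5, and RNA clusters gave no ectoplacental cone class, so these gave no values. No paired analysis was possible because there is 1 library of each kind. Hand2 and the ectoplacental cone class rest on few UMIs.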
